A study of Mus musculus with 4 samples.

Results

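The nonclassical MHC class I genes examined here were H2-Q2, H2-Q4, H2-Q6, H2-Q7, H2-Q10, H2-T3, H2-T22, H2-T23, H2-M3 and Cd1d1. They were taken by name, whatever their values, and made up 10 of the 24444 genes in the deposited table. H2-Q6 was listed at 0 in all 4 libraries, and the other 9 passed the filter on low counts, which kept 15246 genes for testing. Transcripts were compared between CT26-shppp2r1a tumours, grown from CT26 cells with a short hairpin RNA that targets Ppp2r1a (3 libraries), and a CT26-scr tumour, grown from cells with a scrambled hairpin (1 library). CT26 is a colon carcinoma line of BALB/c mice, and Ppp2r1a encodes the scaffold subunit of the phosphatase PP2A. Per the labels, all tumours were taken from mice at a volume of about 70 mm3. The study used these libraries to predict neoantigens.

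Classical class I molecules display peptides on most cells, are highly variable between individuals and are read by CD8+ T cells. Nonclassical class I molecules have a similar fold but vary little, are often restricted to certain tissues, and are read by natural killer cells, gamma delta T cells, invariant natural killer T cells or intraepithelial lymphocytes. In the mouse most of them are encoded in the Q, T and M regions at the distal end of the H2 complex, where repeated duplication has left runs of near-identical genes whose number differs between inbred strains. Transcription of many class I genes is raised by interferon gamma, through an interferon-stimulated element, a kappa B site and an X and Y box module bound by the RFX complex and the transactivator Nlrc5.

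In the GRCm38 annotation the H2-Q genes lay in order at chr17:35342242-35474563, from H2-Q2 to H2-Q10, all on the plus strand. H2-T23, H2-T22 and H2-T3 lay at chr17:36029773-36190287 on the minus strand, and H2-M3 lay further out at chr17:37270220-37274484 on the plus strand. Cd1d1 lay apart from the H2 complex, at chr3:86995834-86999441 on the minus strand. The promoter windows of 5 of these genes, 250 bases before to 50 after the start annotated by RefSeq on GRCm38.p6, are printed 5′ to 3′ because they include the 3 highest mean levels in the knockdown libraries and both genes with an unadjusted p under 0.05. H2-Q7 is at chr17:35438905-35439204 on the plus strand, H2-T22 at chr17:36042693-36042992, H2-T23 at chr17:36032652-36032951 and H2-T3 at chr17:36190102-36190401 on the minus strand, and H2-Q2 at chr17:35342057-35342356 on the plus strand. Capitals mark matches, on either strand, to the core of the interferon-stimulated element (TTTCACTT or TTTCNNTTT), the kappa B site of enhancer A (GGGATTNCC), the X2 box (TGNTGAC) and the Y box (CCAAT).
H2-Q7: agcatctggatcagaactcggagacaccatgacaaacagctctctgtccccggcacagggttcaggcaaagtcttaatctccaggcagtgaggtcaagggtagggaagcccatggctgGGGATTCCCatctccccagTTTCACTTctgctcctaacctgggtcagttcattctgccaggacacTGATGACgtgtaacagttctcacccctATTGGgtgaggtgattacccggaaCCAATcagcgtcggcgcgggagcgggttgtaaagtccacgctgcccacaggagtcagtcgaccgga
H2-T22: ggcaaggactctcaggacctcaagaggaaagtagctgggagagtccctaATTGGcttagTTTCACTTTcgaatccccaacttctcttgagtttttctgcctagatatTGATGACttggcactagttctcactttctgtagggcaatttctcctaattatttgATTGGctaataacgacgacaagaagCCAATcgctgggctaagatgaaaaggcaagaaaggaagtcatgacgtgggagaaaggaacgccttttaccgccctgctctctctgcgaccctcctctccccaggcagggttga
H2-T23: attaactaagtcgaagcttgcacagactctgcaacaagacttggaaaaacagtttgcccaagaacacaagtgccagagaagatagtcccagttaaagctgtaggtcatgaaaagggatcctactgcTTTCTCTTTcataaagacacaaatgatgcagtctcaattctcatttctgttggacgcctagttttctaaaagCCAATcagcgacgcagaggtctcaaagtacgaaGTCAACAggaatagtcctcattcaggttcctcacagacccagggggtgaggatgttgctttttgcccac
H2-T3: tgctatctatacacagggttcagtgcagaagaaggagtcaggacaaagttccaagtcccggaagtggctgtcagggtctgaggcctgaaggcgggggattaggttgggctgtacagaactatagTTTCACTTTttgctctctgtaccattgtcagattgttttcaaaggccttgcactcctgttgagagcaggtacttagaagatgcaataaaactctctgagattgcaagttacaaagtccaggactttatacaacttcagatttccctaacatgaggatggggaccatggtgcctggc
H2-Q2: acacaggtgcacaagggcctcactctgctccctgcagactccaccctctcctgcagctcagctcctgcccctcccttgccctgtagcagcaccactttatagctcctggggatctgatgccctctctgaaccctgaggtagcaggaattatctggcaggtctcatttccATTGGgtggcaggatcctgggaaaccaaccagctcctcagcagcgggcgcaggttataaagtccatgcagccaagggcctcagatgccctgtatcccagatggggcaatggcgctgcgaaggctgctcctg
The sequences are those of the C57BL/6J reference and not of the BALB/c cells, and these spellings were chosen after the windows had been read.

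The H2-Q7 window held all 4 elements in the order kappa B, interferon element, X2 and Y box, the arrangement known from classical class I promoters. H2-Q4 and H2-Q6, which have the same order, held all 4 as well. H2-Q4 also had a second X2 match on the reverse strand, after the Y box (from 32 bases after the start). The windows of H2-T22, H2-T23 and H2-M3 held the interferon element, X2 and Y box letters without the kappa B letters. In H2-T23 the X2 match was on the reverse strand of the window and lay after the Y box (from -19 and -52 bases). Its interferon match fitted only the looser spelling, TTTCNNTTT. H2-Q10 and H2-T3 held the interferon element letters but neither X2 nor Y box, and H2-Q2 held a Y box but no interferon element, kappa B or X2 letters. No window of Cd1d1 was found in the table used. Of the 9 windows, 8 held the interferon core, 3 the kappa B letters, 6 the X2 letters and 7 the Y box. Among all 27025 RefSeq promoter windows of the same length the shares were 11.6%, 0.984%, 14.2% and 37.9%. A TATAAA match, not capitalised, was found in 4 of 9 windows and 14.2% of all windows. A match is a stretch of letters and not a shown binding site, and the windows of near-identical genes are not independent.

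**Figure D1:**
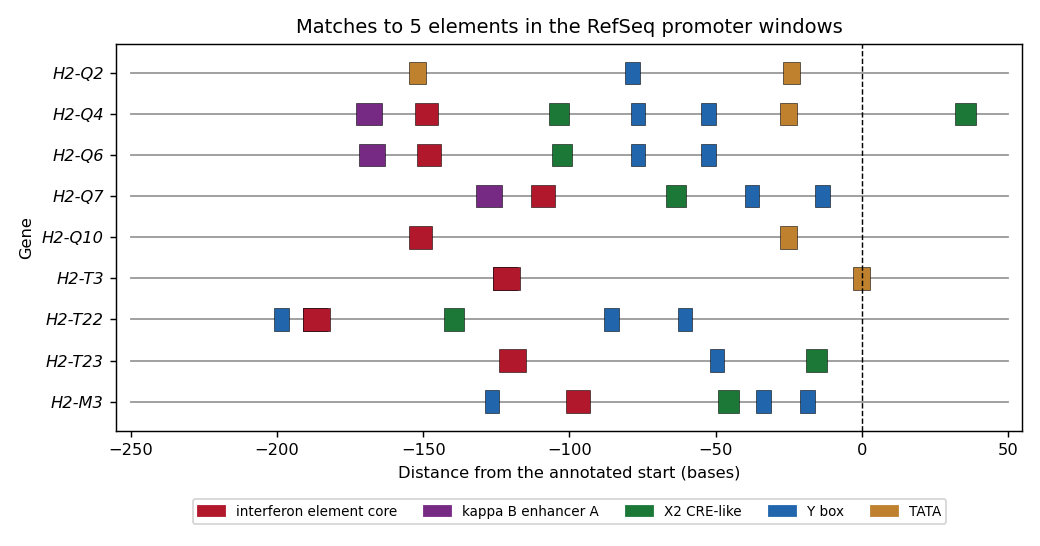
Positions of matches to 5 elements in the promoter windows of 9 genes, as distance in bases from the RefSeq start (dashed line), on either strand. H2-Q4, H2-Q6 and H2-Q7 hold kappa B, interferon, X2 and Y box matches in the same order, with a further X2 match after the start in H2-Q4. H2-Q2 has no match to the interferon core.

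The libraries held 24726440, 27508469 and 27910370 expected counts in CT26-shppp2r1a 1, 2 and 3 and 28950004 in CT26-scr. An expected count is an estimated number of reads per gene, which need not be whole where reads are shared between genes. TPM is the length-corrected share of each gene among the transcripts of a library, scaled to a fixed total. Ppp2r1a measured 40.19, 29.80 and 22.26 TPM in the knockdown libraries and 75.09 TPM in the control, with all knockdown libraries below it (log2 fold change -1.62, SE 0.26, unadjusted p = 0.00236 by edgeR's quasi-likelihood test, adjusted p = 0.782, adjusted p = 0.0244 by DESeq2). The libraries differed widely in tissue markers. The 11 small bowel enterocyte genes, including Fabp2, Apoa4 and Sis, were all detected in every library, in tumours labelled as colon cancer cells. They summed to 27772, 69477 and 110658 TPM in CT26-shppp2r1a 1, 2 and 3 and to 102389 TPM in CT26-scr. The 5 large bowel genes summed to 3718, 986 and 180 TPM in the knockdown libraries and 375 TPM in the control, where Car1 was listed at 0. How much of each library came from CT26 cells was not tested, so every difference given here is between libraries of mixed and unequal tissue content. The 14 interferon-response genes summed to 1108, 524 and 128 TPM in the knockdown libraries and 91.8 TPM in the control. In bulk tissue, fewer cells of a type and less RNA per cell cannot be told apart. The study speaks of separate tumours, without saying that each came from its own mouse, and the p-values cover only how much these particular libraries spread. With 1 control library that spread came from the knockdown libraries alone. The descriptions of CT26-shppp2r1a 3 and of CT26-scr both carry a 3, whose meaning is not stated.

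The 10 genes spanned a wide range of levels. H2-Q2 ranked highest in every library. In CT26-shppp2r1a tumours its mean of 899 ± 476 TPM (SD, n = 3) was followed by H2-T23 at 418 ± 23.7, H2-T3 at 248 ± 129 and H2-Q4 at 172 ± 71.8 TPM. Far lower came H2-Q7 at 35.6 ± 39.0, H2-T22 at 22.1 ± 7.67, H2-Q10 at 12.2 ± 1.37, H2-M3 at 11.2 ± 8.25 and Cd1d1 at 3.18 ± 2.00 TPM. Neighbours in this order overlapped between libraries, except that H2-T23 lay above H2-T3 and H2-Q4 above H2-Q7 in every comparison of knockdown libraries. In CT26-scr the order was H2-Q2, H2-T3, H2-T23, H2-Q4, H2-Q10, H2-T22, H2-M3, Cd1d1 and H2-Q7. H2-Q2 and H2-T3 together took 40.2%, 64.6% and 75.0% of the summed TPM of the 10 genes in CT26-shppp2r1a 1, 2 and 3, against 81.4% in CT26-scr. The remaining members summed to 810, 625.45 and 586 TPM in the knockdown libraries and 394 TPM in the control. Classical H2-D1 stood higher than any of them, at 3278, 2626 and 2566 TPM in the knockdown libraries and 2842 TPM in the control.

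**Figure D2:**
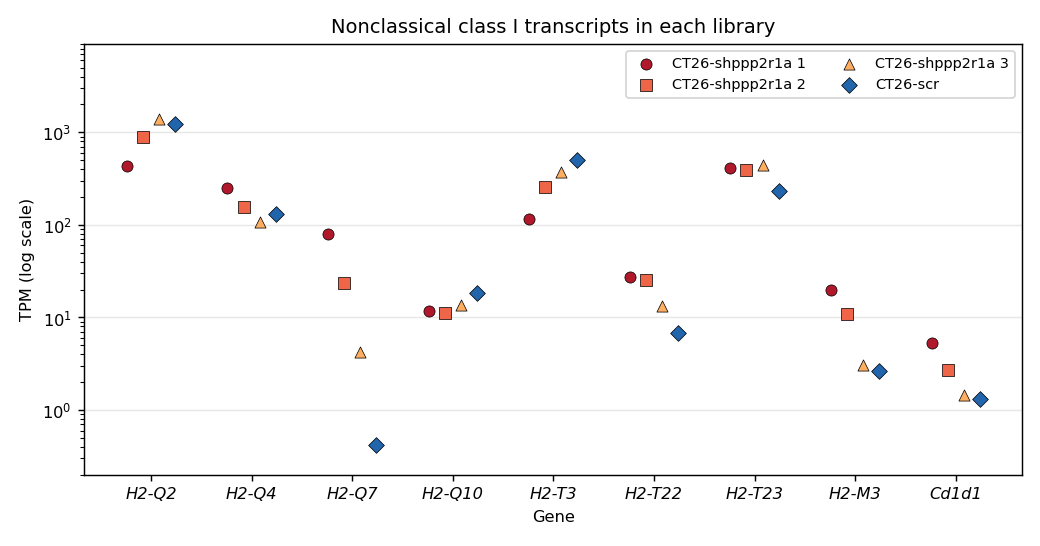
TPM on a log axis of 9 nonclassical class I genes, 1 point per library, with the 3 CT26-shppp2r1a libraries left of the CT26-scr library. H2-Q6, at 0 in every library, is not drawn. H2-Q7 reached 79.32 TPM in a knockdown library and 0.42 TPM in the control.

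None of the 9 genes passed edgeR's quasi-likelihood test at a Benjamini-Hochberg adjusted p of 0.05, and neither did any other gene (0.0% of 15246). At an unadjusted p under 0.05 the test called 2 of the 9, H2-Q7 and H2-T22, against 3.65% of all genes tested. DESeq2 called 1 of the 9, H2-Q7, against 1.29% of the genes to which it gave an adjusted p. Limma called none of the 9, on log2 CPM or on log2 TPM. On TPM, 5 of the 9 lay above the control in all 3 knockdown libraries, namely H2-Q7, H2-T22, H2-T23, H2-M3 and Cd1d1, against 43.6% of all genes tested. H2-T3 and H2-Q10, 2 of the 9, lay below it in all 3, against 15.9%. Both shares were close to those of all genes and are no result about this gene group. H2-Q2 and H2-Q4 had knockdown libraries on both sides of the control. The median log2 fold change of the 9 genes was 0.56, with 6 above 0 and 3 below, beside a median of 0.06 for all genes tested.

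Which knockdown libraries were in the fit changed the calls. Without CT26-shppp2r1a 3 the test called H2-Q7, H2-T22 and H2-M3, 3 of the 9, against 7.49% of all genes. Without CT26-shppp2r1a 2 it called H2-Q7 alone, against 0.879% of all genes, and without CT26-shppp2r1a 1 it called none. In each of these fits the spread came from a single pair of libraries.

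**Figure D3:**
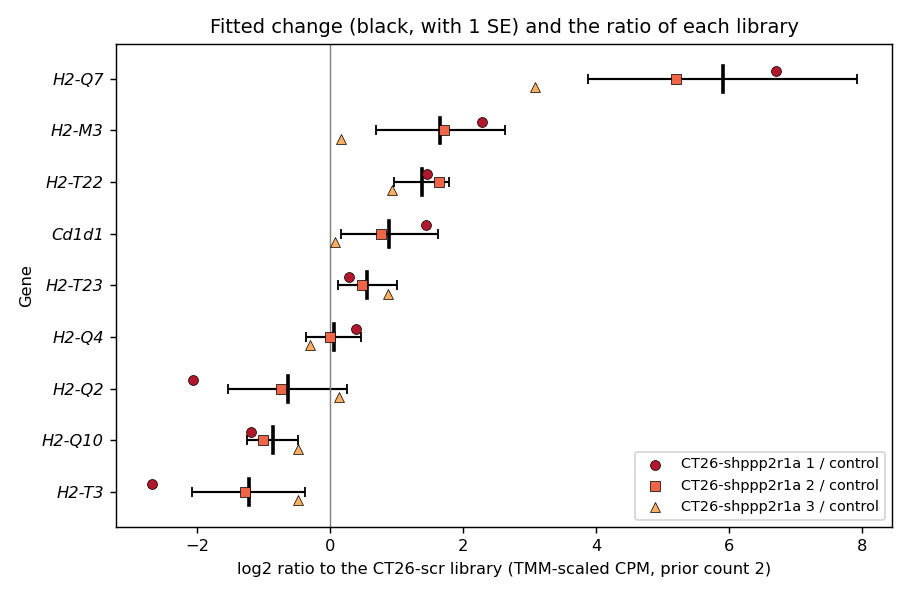
Fitted log2 fold change, CT26-shppp2r1a over CT26-scr, of 9 genes (black bar, whiskers 1 SE from edgeR), with the log2 ratio of each knockdown library to the control as coloured points. H2-Q7 lies highest at 5.91 and H2-T3 lowest at -1.23.

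H2-Q7 encodes Qa-2, a class I molecule held in the membrane by a lipid anchor. It stood at 79.32, 23.33 and 4.27 TPM in CT26-shppp2r1a 1, 2 and 3, against 0.42 TPM in CT26-scr. All knockdown libraries lay above the control, and the highest of them was many times the lowest. The knockdown mean was 84.9 times the control level (log2 fold change 5.91, SE 2.02, unadjusted p = 0.0379, adjusted p = 0.782 by edgeR, adjusted p = 0.00152 by DESeq2). The expected counts behind these levels were 1334, 427 and 79.6 in the knockdown libraries, against 8.26 in the control. A count of 8 has an exact Poisson 95% interval of 3.45 to 15.8, which covers counting error only. The adjusted p was 9.75e-05 without CT26-shppp2r1a 2 and 0.000805 without CT26-shppp2r1a 3, and ran from 1.78e-05 to 0.988 over 14 alternatives.

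H2-Q7 shares sequence with its neighbours, so its value depends on how their reads were divided. Of the 50-base words of its GRCm38 transcripts, 26.4% also occurred in transcripts of other genes, and its expected counts were not whole in any library. The transcripts used lack H2-Q8 and H2-Q9, so words shared with those genes are not counted. H2-Q6, another Qa-2 gene with 32.0% of such words shared, was listed at 0 in every library, and whether its reads were given to other genes was not tested. H2-Q8 measured 54.07, 25.39 and 3.64 TPM in the knockdown libraries and 3.04 TPM in the control. H2-Q9 measured 76.85, 37.46 and 8.85 TPM in the knockdown libraries and 11.23 TPM in the control. Both Qa-2 genes were above the control in CT26-shppp2r1a 1 and 2, whereas in CT26-shppp2r1a 3 H2-Q9 was below it.

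The counts of H2-Q6 to H2-Q9 summed to 3816, 1740 and 347 in CT26-shppp2r1a 1, 2 and 3, against 336 in CT26-scr. Of these sums, H2-Q7 took 35.0%, 24.5% and 22.9% in the knockdown libraries, against 2.46% in the control, where H2-Q9 took 83.1%. Fitted as 1 feature, the 4 genes had a log2 fold change of 2.23 (SE 1.30, unadjusted p = 0.154, adjusted p = 0.782 by edgeR), less than that of H2-Q7 alone. In CT26-shppp2r1a 3 the summed count was close to that of the control, while the count of H2-Q7 itself was not. Strains differ in which of these genes they carry, and the effect of a reference from another strain on this split was not tested.

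**Figure D4:**
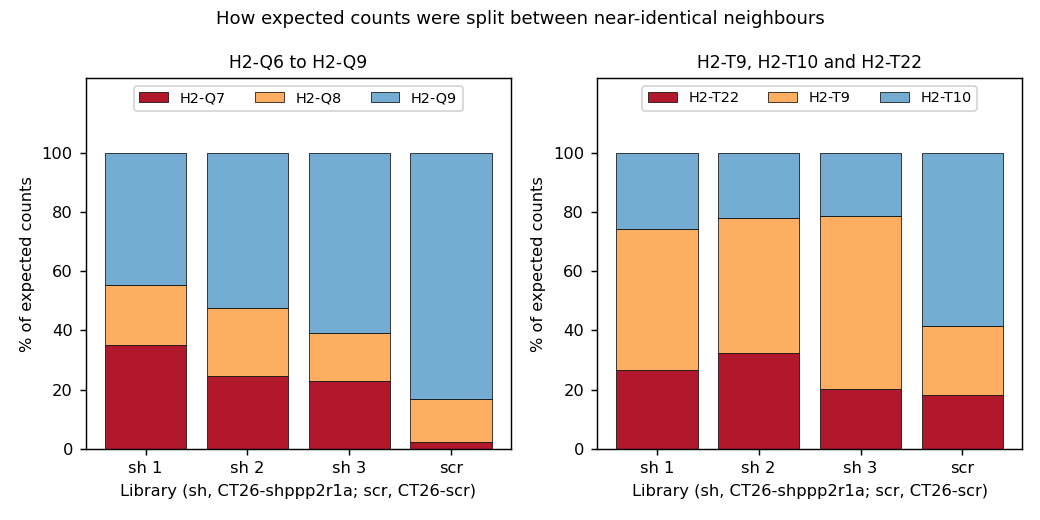
Share (%) of the expected counts of H2-Q6 to H2-Q9 (left) and of H2-T9, H2-T10 and H2-T22 (right) given to each gene in each library, with the CT26-shppp2r1a libraries left of CT26-scr. H2-Q6 held none. H2-Q7 took 22.9% to 35.0% in the knockdown libraries, against 2.46% in the control.

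H2-T22 encodes a class I molecule that is recognised by some gamma delta T cells and presents no peptide. It stood at 27.38, 25.66 and 13.32 TPM in CT26-shppp2r1a 1, 2 and 3, against 6.77 TPM in CT26-scr. All knockdown libraries lay above the control, by less in CT26-shppp2r1a 3. Its log2 fold change was 1.38 (SE 0.41, unadjusted p = 0.0243, adjusted p = 0.782 by edgeR), and the adjusted p was 0.0331 without CT26-shppp2r1a 3 (0.0331 to 1.0 over 14 alternatives).

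It shares sequence with its neighbours, with 31.2% of the 50-base words of H2-T22 found in H2-T10. Words shared with H2-T9 are not counted, because the transcripts used lack that gene. H2-T10, a ligand of the same T cells, measured 16.11, 10.59 and 8.54 TPM in the knockdown libraries and 13.08 TPM in the control. H2-T9 measured 52.73, 38.68 and 41.96 TPM in the knockdown libraries and 9.30 TPM in the control (log2 fold change 1.96, SE 0.31, unadjusted p = 0.00222, adjusted p = 0.782 by edgeR, adjusted p = 0.00906 by DESeq2). On TPM, H2-T10 thus had libraries on both sides of the control while H2-T9 and H2-T22 lay above it in all 3. In scaled CPM, the log2 ratios of H2-T10 to the control were -0.25, -0.58 and -0.65 in CT26-shppp2r1a 1, 2 and 3. The log2 fold change of H2-T10 was -0.48 (SE 0.29, unadjusted p = 0.162, adjusted p = 0.782 by edgeR). H2-T22 was 1.70, 2.42 and 1.56 times H2-T10 in TPM in the knockdown libraries and 0.518 times in the control. Summed into 1 feature, the 3 genes held 2671, 2252 and 1852 counts in the knockdown libraries, against 1077 in the control (log2 fold change 0.84, SE 0.27, unadjusted p = 0.0320, adjusted p = 0.782 by edgeR). The summed feature lay above the control in every knockdown library.

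H2-T23 encodes Qa-1, which presents leader peptides of other class I molecules to the receptor CD94 with NKG2A or NKG2C on natural killer and T cells. It stood at 416.81, 394.43 and 441.78 TPM in CT26-shppp2r1a 1, 2 and 3, against 234.45 TPM in CT26-scr. The knockdown libraries were close to each other and all above the control, with a mean 1.78 times its level. Its log2 fold change was 0.56 (SE 0.44, unadjusted p = 0.263, adjusted p = 0.782 by edgeR). The log2 ratios of scaled CPM to the control were 0.28, 0.47 and 0.87, an order of the knockdown libraries that differs from that of their TPM. H2-T23 was 0.127, 0.150 and 0.172 times H2-D1 in TPM in the knockdown libraries and 0.0825 times in the control.

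The genes of its receptor were low. Klrd1, which encodes CD94, measured 7.21, 7.46 and 10.89 TPM in the knockdown libraries and 3.92 TPM in the control. Klrc1, which encodes NKG2A, measured 1.5, 0.50 and 0.07 TPM in the knockdown libraries and 0.10 TPM in the control. Klrc2, which encodes NKG2C and was too low to be tested, measured 0.10, 0 and 0 TPM in the knockdown libraries and 0.18 TPM in the control. Klrd1 was thus above the control in all 3 knockdown libraries and Klrc1 in CT26-shppp2r1a 1 and 2, while Klrc2 was below it in all 3. Of Klrd1 and Klrc1, neither passed edgeR's test (unadjusted p = 0.238 and 0.246).

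H2-M3 encodes a class I molecule that presents N-formylated peptides, as made by bacteria and mitochondria, to CD8+ T cells. It stood at 19.58, 10.80 and 3.10 TPM in CT26-shppp2r1a 1, 2 and 3, against 2.67 TPM in CT26-scr. CT26-shppp2r1a 1 and 2 lay well above the control and CT26-shppp2r1a 3 next to it. The log2 fold change was 1.66 (SE 0.97, unadjusted p = 0.155, adjusted p = 0.782 by edgeR), and the adjusted p was 0.0351 without CT26-shppp2r1a 3 (0.0351 to 1.0 over 14 alternatives). Its counts were whole in every library, 406, 246 and 69 in the knockdown libraries, against 62 in the control, and 0.576% of its 50-base words occurred in other genes.

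Cd1d1 encodes CD1d, which presents lipids to invariant natural killer T cells. It stood at 5.36, 2.74 and 1.44 TPM in CT26-shppp2r1a 1, 2 and 3, against 1.31 TPM in CT26-scr. These rest on 146, 82 and 42 counts in the knockdown libraries, against 40 in the control, all whole. The libraries lined up as for H2-M3, with CT26-shppp2r1a 3 next to the control (log2 fold change 0.89, SE 0.73, unadjusted p = 0.284, adjusted p = 0.782 by edgeR). Its copy Cd1d2, with which it shares 19.1% of its 50-base words, was listed at 0 throughout. Mttp, which loads lipids onto CD1d and onto lipoproteins in enterocytes, measured 347, 961 and 1770 TPM in the knockdown libraries and 1505 TPM in the control. Zbtb16, a regulator that marks invariant natural killer T cells, was at or below 0.23 TPM in every library.

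H2-T3 encodes the thymus leukaemia antigen, known from the epithelium of the small bowel, where it binds the CD8 alpha homodimer on intraepithelial lymphocytes. It stood at 115.83, 254.61 and 372.56 TPM in CT26-shppp2r1a 1, 2 and 3, against 507.44 TPM in CT26-scr. All knockdown libraries lay below the control, CT26-shppp2r1a 1 the furthest. The log2 fold change was -1.23 (SE 0.85, unadjusted p = 0.215, adjusted p = 0.782 by edgeR). The log2 ratios to the control were -2.68, -1.27 and -0.49, and the median ratios of the 11 small bowel enterocyte genes were -2.74, -1.11 and -0.16 in the same libraries. The part of enterocyte content in the H2-T3 difference was not tested. H2-T3 shared 0.894% of its 50-base words with other genes, yet its expected counts were not whole in any library. H2-Bl, another class I gene, measured 124.59, 272.46 and 442.08 TPM in the knockdown libraries and 795.71 TPM in the control, also below the control throughout. H2-T3 was 0.930, 0.934 and 0.843 times H2-Bl in TPM in the knockdown libraries and 0.638 times in the control.

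Cd8a, which encodes the CD8 alpha chain, measured 2.98, 5.15 and 13.86 TPM in the knockdown libraries and 10.48 TPM in the control. Gzma, a granzyme of cytotoxic and intraepithelial lymphocytes, measured 18.93, 27.70 and 98.22 TPM in the knockdown libraries and 193.26 TPM in the control. Neither gene passed edgeR's test (unadjusted p = 0.551 and 0.111). They are 2 of 8 T cell and intraepithelial lymphocyte markers. On TPM, 1 marker was above the control in all knockdown libraries (Cd3d), against 43.6% of all genes tested. Another 3 were below it in all, against 15.9%, and 4 were mixed. In scaled CPM, the log2 ratios of Cd3d to the control were -0.29, -0.08 and 0.49 in CT26-shppp2r1a 1, 2 and 3. The 8 genes summed to 80.2, 82.3 and 223 TPM in the knockdown libraries and 310 TPM in the control, with none at 0. Most of the control sum was Gzma and the granzyme gene Gzmb, at 193.26 and 57.37 TPM, so the sums mainly follow these genes.

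H2-Q2, whose role is less clear, had the highest level of the group. It stood at 429.62, 885.41 and 1380.81 TPM in CT26-shppp2r1a 1, 2 and 3, against 1222.82 TPM in CT26-scr. CT26-shppp2r1a 1 and 2 lay below the control and CT26-shppp2r1a 3 above it. Its log2 fold change was -0.64 (SE 0.90, unadjusted p = 0.513, adjusted p = 0.816 by edgeR). The log2 ratios to the control were -2.06, -0.74 and 0.13, and here too the part of enterocyte content was not tested. H2-Q1, which holds 12.9% of the 50-base words of H2-Q2, measured 247.14, 503.18 and 867.59 TPM in the knockdown libraries and 960.13 TPM in the control. The ratio of H2-Q2 to H2-Q1 was 1.74, 1.76 and 1.59 in the knockdown libraries, against 1.27 in the control.

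H2-Q4 encodes a class I molecule that can be secreted. It stood at 249.77, 157.40 and 108.29 TPM in CT26-shppp2r1a 1, 2 and 3, against 130.17 TPM in CT26-scr. CT26-shppp2r1a 3 was below the control and the other knockdown libraries above it in TPM. The log2 fold change was 0.05 (SE 0.41, unadjusted p = 0.905, adjusted p = 0.966 by edgeR), and it was -0.16 without CT26-shppp2r1a 1. H2-Q4 was 0.0762, 0.0599 and 0.0422 times H2-D1 in the knockdown libraries and 0.0458 times in the control, with the groups overlapping.

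H2-Q10 encodes a secreted class I molecule best known from the liver. It stood at 11.82, 11.09 and 13.74 TPM in CT26-shppp2r1a 1, 2 and 3, against 18.55 TPM in CT26-scr. The knockdown libraries were close to each other and all below the control. The log2 fold change was -0.87 (SE 0.39, unadjusted p = 0.0808, adjusted p = 0.782 by edgeR). Its counts were 254, 262 and 317 in the knockdown libraries, against 446 in the control, none of them whole. Alb, the defining hepatocyte transcript, measured 0.10, 6.82 and 7.57 TPM in the knockdown libraries and 11.06 TPM in the control. Some other hepatocyte genes had few counts, with Fga, Fgb and Serpina1a at 17, 16 and 29.9 in the control. Of the 6 hepatocyte genes, 5 were below the control in all knockdown libraries, against 15.9% of all genes tested. The exception was Tat, an amino acid enzyme gene of the liver, at 47.42, 14.01 and 0.18 TPM in the knockdown libraries and 0.10 TPM in the control. Through Tat the 6 genes summed to 48.1, 22.9 and 9.97 TPM in the knockdown libraries and 14.8 TPM in the control, with none at 0. The part of liver transcripts in the H2-Q10 values was not tested.

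In all, 11 ratios or shares within a locus or against H2-D1 were computed, with pairs chosen after the levels were known. They are descriptions without a test, several are shares of the same sum and so depend on each other, and with 1 control a value outside the knockdown range is common. Such a ratio does not change with the scaling of a library but does change with how reads of similar genes are divided.

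Genes that work with class I molecules had no call as a list. Of 24 partners, 0 passed edgeR's adjusted threshold and 0 had an unadjusted p under 0.05, DESeq2 called 0, and the median log2 fold change was -0.12, with 11 above 0 and 13 below. B2m, the light chain that all these molecules need, measured 3952, 3486 and 4535 TPM in the knockdown libraries and 4210 TPM in the control. Tap1, which pumps peptides into the endoplasmic reticulum, measured 115.06, 67.09 and 48.65 TPM in the knockdown libraries and 35.41 TPM in the control. Nlrc5, the class I transactivator, measured 9.46, 3.89 and 0.78 TPM in the knockdown libraries and 0.71 TPM in the control (log2 fold change 2.30, SE 1.33, unadjusted p = 0.151). B2m had knockdown libraries on both sides of the control, whereas Tap1 and Nlrc5 were above it in all 3. For Nlrc5, CT26-shppp2r1a 3 lay next to the control, at 89 counts against 84. Of the 24 partners, 12 lay above the control in all 3 knockdown libraries on TPM, against 43.6% of all genes tested. Another 2, Rfxank of the RFX complex and Irf2, lay below it in all 3, against 15.9%.

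Of 14 receptor genes, Trdc, Tcrg-C1, Tcrg-C2, Tcrg-C4 and Tcrd-C were not listed in the deposited table, 9 were, and 7 were tested. None passed edgeR's adjusted threshold, 0 had an unadjusted p under 0.05 and DESeq2 called 0, with a median log2 fold change of 0.57. Of 36 other class I and class I-like genes, 21 were tested. None passed the adjusted threshold, 4 had an unadjusted p under 0.05, DESeq2 called 3, and the median was 0.74 with 15 above 0 and 6 below. Over all 15246 genes tested, 3.65% had an unadjusted p under 0.05, DESeq2 called 1.29%, and 8150 were above 0. The unadjusted calls were H2-T9, H2-M2, H60b and Ulbp1. H2-M2, of the M region, measured 7.97, 4.77 and 1.79 TPM in the knockdown libraries and 0.36 TPM in the control (log2 fold change 3.35, SE 0.97, unadjusted p = 0.0222, adjusted p = 0.782 by edgeR).

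The 14 interferon-response genes had a median log2 fold change of 2.37, and all 14 fitted changes were above 0, as were 8150 of all 15246 genes. On TPM, 8 of the 14 lay above the control in all 3 knockdown libraries, against 43.6% of all genes tested. In CT26-shppp2r1a 3, Iigp1, Gbp2, Gbp3, Gbp5, Cxcl9 and Cxcl10 lay below the control. Of the 14, none passed edgeR's adjusted threshold, 0 had an unadjusted p under 0.05, and DESeq2 called 1 (Tgtp1), against 1.29% of all genes. Their median log2 ratio to the control was 3.21, 2.36 and 0.30 in CT26-shppp2r1a 1, 2 and 3, or 0.06 in CT26-shppp2r1a 3 with the control level of Ifng set at a floor of 3 counts. Of the 9 members, 4 (H2-Q4, H2-Q7, H2-M3 and Cd1d1) had their highest ratio in CT26-shppp2r1a 1 and their lowest in CT26-shppp2r1a 3, as these medians did. Another 4 (H2-Q2, H2-Q10, H2-T3 and H2-T23) had their lowest in CT26-shppp2r1a 1 and their highest in CT26-shppp2r1a 3. H2-T22 had a near-equal ratio in CT26-shppp2r1a 1 and 2, at 1.46 and 1.64, and 0.93 in CT26-shppp2r1a 3. Gbp2, a guanylate-binding protein induced by interferon gamma, measured 161.97, 100.79 and 6.51 TPM in the knockdown libraries and 7.08 TPM in the control. Markers of immune cells also differed between the libraries. The 5 macrophage genes summed to 483, 237 and 116 TPM in the knockdown libraries and 115 TPM in the control. The 4 neutrophil genes summed to 700, 697 and 13.2 TPM in the knockdown libraries and 0.58 TPM in the control, where S100a8 and S100a9 were listed at 0. The part of any of these cell types in the class I values was not tested.

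**Figure D5:**
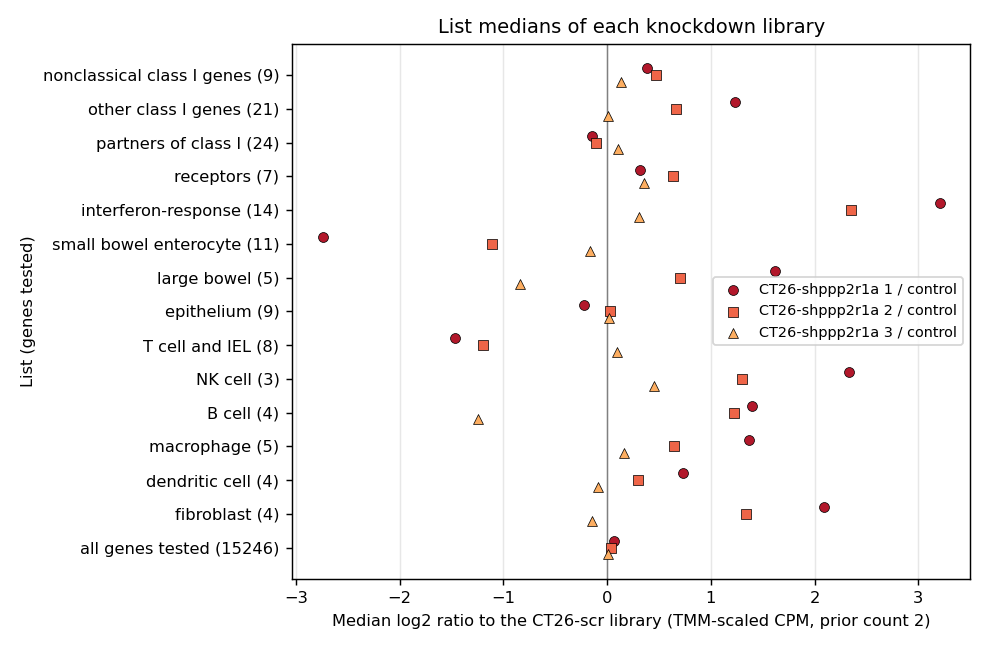
Median log2 ratio of each CT26-shppp2r1a library to CT26-scr for 14 lists and for all genes tested, with the number of genes tested in brackets. The neutrophil and hepatocyte lists are not drawn. Their medians in CT26-shppp2r1a 1, 2 and 3 are 7.06, 7.39 and 2.57 (neutrophil) and -2.84, -0.84 and -0.63 (hepatocyte). The interferon-response medians are 3.21, 2.36 and 0.30, the enterocyte medians -2.74, -1.11 and -0.16, and the medians of the 9 nonclassical class I genes 0.39, 0.47 and 0.13.

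For each member, the genes with the most similar pattern were sought among 10164 named genes (10165 for Cd1d1), by the root mean square distance of centred log2 CPM over the 4 libraries. With 4 libraries many genes lie close, and likeness says nothing of shared control. H2-T3 lay nearest to Pdk2 and the fatty acid transporter gene Cd36 (distances 0.041 and 0.050), and H2-Q2 to Optn and Apol7a (0.025 and 0.043). H2-T23 lay nearest to the growth factor gene Hbegf and to Stab1 (0.023 and 0.027), and H2-Q4 to Osbpl8 and Ptrhd1 (0.020 each). H2-M3 lay nearest to the cytokine receptor gene Csf2rb and to Myo5a (0.048 and 0.065), and Cd1d1 to Map4k1 and Slc50a1 (0.019 and 0.024). H2-T22 lay nearest to the spermine oxidase gene Smox and to Frrs1 (0.055 and 0.071), and H2-Q10 to AW549877 and Fbxw9 (0.025 and 0.034). H2-Q7 had the least close neighbours, the phospholipase gene Pla2g2a and Mboat1 (0.18 and 0.30). Pla2g2a measured 140.4, 39.29 and 6.21 TPM in the knockdown libraries and 0.90 TPM in the control, and Mboat1 measured 116.44, 42.39 and 8.07 TPM in the knockdown libraries and 1.32 TPM in the control.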

How the data were processed

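RNA sequencing data of 4 libraries were analysed from a single gene table. The authors deposited expected counts, TPM and FPKM (the last not used here) per gene and library. Their deposited fold (a ratio of knockdown over control) and posterior probability columns hold the study's own comparison and were not used. The submitters' processing notes name Bowtie 0.12.2, mm8 and mm10 without roles, while the counting tool and gene models were not given in the sources used here. Positions therefore come from the GRCm38 annotation. Libraries were matched to columns by their descriptions, with 0 columns unmatched.

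Expected counts (24726440 to 28950004 per library, 5.3% to 5.89% of them not whole, and 7 of the 10 members in each library) were rounded. They were filtered with filterByExpr (minimum count 10), scaled by TMM (factors 1.30, 1.06 and 0.867 in the knockdown libraries, against 0.844 in the control) and tested two-sided with edgeR 4.0.16 in R 4.3.3 (glmQLFit, glmQLFTest), with Benjamini-Hochberg adjustment over all 15246 genes. The SE is the log2 fold change over the root of F. Log2 ratios of single libraries use CPM with a prior count of 2. DESeq2 1.42.0, limma 3.58.1 (log2 CPM, log2(TPM + 1), log2(TPM + 0.1)), other scalings and filters, summed neighbours and leaving out each knockdown library were alternatives. The fits without a library kept the same genes, and after their results were seen they were also run with the genes filtered again. The scripts were tested on simulated data.

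Every member is named. Other genes named are listed partners, receptors, other class I genes, interferon-response genes and cell type markers, and the 2 nearest profiles per member (mean log2 CPM of 2 or more). The members and lists were chosen with earlier results of these data known. Shared 50-base words were counted in GENCODE transcripts of GRCm38, which lack H2-Q8, H2-Q9 and H2-T9, so words shared with those genes are not counted. RefSeq promoter windows were found for 9 of 10 members.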

Additional observations from a re-analysis of the deposited data

How the results depend on the processing

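No paired analysis was possible because there is 1 control library. The count of members past an adjusted p of 0.05, which was 0 in edgeR with all libraries, was 1 with DESeq2 and 0 to 3 with a knockdown library left out, and was 0 in the other alternatives run. Filtering the genes again for the fits without a library, an alternative chosen after seeing the data, called the same members. Over all genes edgeR called 0 with all libraries, 178 were called by DESeq2, 134 without CT26-shppp2r1a 2 and 1142 without CT26-shppp2r1a 3. The median log2 fold change of the members was 0.87 with scaling by library size alone, when the median of all genes moved by a similar amount to 0.40, and 0.75 and 0.83 on log2(TPM + 1) and log2(TPM + 0.1), beside 0.22 and 0.31 for all genes. It was 0.38 to 0.59 with a library left out. Requiring a difference of over 1.5 times left 3 members above the control in every knockdown library and 0 below it. Of 128 single-gene values under the alternatives, 117 kept their direction and side of the threshold and 9 passed it newly. The other 2 reversed, both for H2-Q4 without CT26-shppp2r1a 1, with the same genes or with genes filtered again, and its log2 fold change ran from -0.16 to 0.20 with a library left out. The 42 counts of Cd1d1 and 8.26 of H2-Q7 in single libraries limit what depth can show for them.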

Other observations

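The ligands of NKG2D, class I-like molecules shown by stressed or transformed cells to natural killer and T cells, were in the list of other class I genes. Ulbp1 stood at 4.02, 4.61 and 1.25 TPM in CT26-shppp2r1a 1, 2 and 3, against 0.10 TPM in CT26-scr (log2 fold change 4.65, SE 1.12, unadjusted p = 0.0114 by edgeR). H60b measured 1.49, 0.61 and 0.21 TPM in the knockdown libraries and was listed at 0 in the control. H60c measured 2.93, 0.95 and 0.04 TPM in the knockdown libraries and 0.02 TPM in the control. All knockdown libraries lay above the control in these 3 genes, as in 43.6% of all genes tested. None of the 3 passed edgeR's adjusted threshold, and DESeq2 called Ulbp1. The counts were very low, at 3 for Ulbp1, 0 for H60b and 1 for H60c in the control. In CT26-shppp2r1a 3 there were 3 counts of H60b and 2 of H60c. Of the Raet1 ligands, Raet1c measured 0.24, 0.85 and 0.16 TPM in the knockdown libraries and 0.60 TPM in the control (log2 fold change -0.80), on both sides of it. Raet1b measured 0.89, 0.23 and 0 TPM in the knockdown libraries and was listed at 0 in the control. Raet1a, Raet1d and Raet1e were at or below 0.31 TPM in every library. Klrk1, which encodes NKG2D, measured 1.90, 0.85 and 0.17 TPM in the knockdown libraries and 0.19 TPM in the control. Procr, a class I-like receptor of protein C, measured 13.39, 7.38 and 2.97 TPM in the knockdown libraries and 2.20 TPM in the control.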
